A study of Drosophila melanogaster with 6 samples.

Results

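CG5691, Vha100-4, CG6785, HmgZ, Amph, CG9743, CG15099 and pst are Drosophila genes on which engaged RNA polymerase II (Pol II) was higher after knockdown of polybromo (Pbro) than in control cells. They are 8 of the 5524 genes listed in the 12 deposited sheets of the series, counted by CG number. A gene since merged from several CG numbers counts once for each. They were chosen by name from the genes called up after Pbro RNAi, so their values in the Pbro comparisons are the values that selected them and are given as a description only. The name column of the sheets found 7 of them. The remaining one, Vha100-4, stands there under its older name CG7678 and was found by its CG number.

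The measurements are PRO-seq, in which polymerases held in isolated nuclei add a labelled nucleotide to their RNA, so that sequencing from that nucleotide places each engaged Pol II on its strand. All 6 libraries came from the S2 line, which was derived from fly embryos and resembles hemocytes (insect blood cells), with 2 replicates per treatment. Pbro_RNAi cells received a double-stranded RNA (dsRNA) of 493 bp against polybromo, BEAF_RNAi cells one of 668 bp against the insulator protein gene BEAF, and LacZ_RNAi control cells one of 835 bp against a bacterial gene that flies lack. Every culture was given 150 µg of dsRNA, a second dose of 150 µg after 2.5 days, and was harvested after a further 2.5 days. The labels name no other difference between the groups. RNAi lowers a protein without deleting its gene.

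Pbro is a subunit specific to PBAP, one of the SWI/SNF-class complexes that use ATP to slide or evict nucleosomes. In fly cells PBAP is known for keeping promoters clear of nucleosomes, often together with the GAGA factor. After initiation Pol II commonly pauses a short way into the gene before it is released into the body, so PRO-seq reads near the start and reads along the body can change separately.

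The Pbro treatment is defined by the stretch of the polybromo transcript (gene on 3R) that the dsRNA copies. Its ends are set by the PCR primers below, shown because they identify what was knocked down. Only the gene-specific part is printed, past the 24 bases that the BEAF and Pbro primers all share, 5′ to 3′.
Pbro forward: actactacgacattatcaggg
Pbro reverse: tctgtgcgggacaactttc

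Both knockdowns were set against LacZ RNAi for promoter-proximal reads and for gene body reads, which gives 4 comparisons. A value is the log2 fold change of knockdown over LacZ RNAi as deposited by the authors from DESeq2, with its adjusted p. A transcript is called up or down at an adjusted p under 0.05 and unchanged at an adjusted p over 0.9. Transcripts between these limits, or with no adjusted p, are not in the sheets used here and are written as not listed. No value per library stands in the sheets, so neither a level nor a spread between replicates can be given for any gene, and the adjusted p is the only measure of error. Of the 32 values that 8 genes could have in 4 comparisons, 18 were listed.

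In the Pbro promoter comparison 5 of the 8 genes were listed, of which 4 were up, none was down and pst was unchanged. Among all 2510 listed transcripts 1.87% were up and 13.2% were down, so gains were the rarer direction. In the Pbro gene body comparison 5 of the 8 were listed and all 5 were up, against 1.09% up and 5.45% down among 4127 listed transcripts. Since the genes were selected for these gains, nothing is read from their counts against those shares. In the BEAF promoter comparison HmgZ alone was listed, as unchanged, where 2.67% of 2137 listed transcripts were up and 2.2% were down. In the BEAF gene body comparison 7 of the 8 were listed, all as unchanged, where 0.416% of 4810 listed transcripts were up and 1.33% were down.

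**Figure D1:**
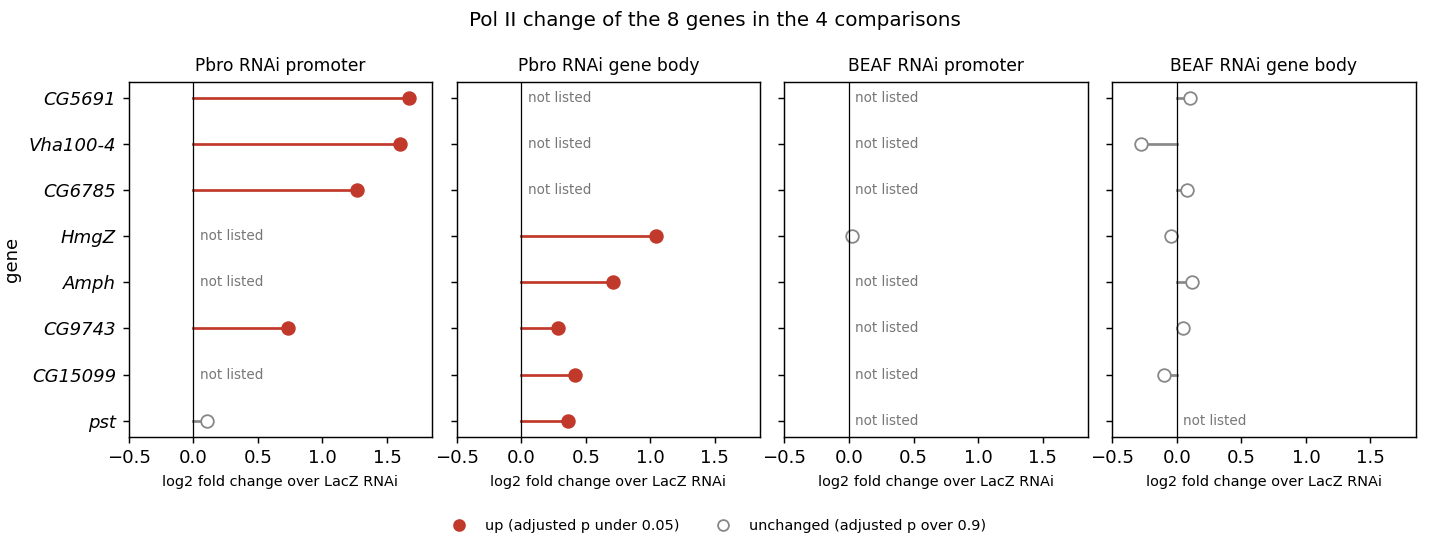
Log2 fold change over LacZ RNAi (x axis) of each of the 8 genes (rows) in the 4 comparisons (panels); filled points are called up and open points are listed as unchanged. The gains reach 1.67 at the promoter and 1.05 in the body after Pbro RNAi, and the listed values after BEAF RNAi lie between -0.28 and 0.12.

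CG5691, Vha100-4 and CG6785 gained Pol II at the promoter and had no listed value in the body. CG5691 showed the largest gain of all 47 promoter-up genes and also the lowest adjusted p among them. Its promoter Pol II was 3.18-fold higher after Pbro RNAi than after LacZ RNAi, a log2 fold change of 1.67 (DESeq2 adjusted p = 6.89e-09), and its body was not listed. After BEAF RNAi its promoter was not listed and its body stood at 0.10, unchanged. In the sheets CG5691 is a minus-strand transcript on chromosome 3L, 1959482 to 1963034 (dm3). The current reference annotation merges this older tag with CG11814 into mv (mauve), which encodes a BEACH-domain protein of the LYST type that acts in vesicle and lysosome traffic.

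CG11814 lies 698 bp downstream of CG5691 on the same strand, and the sheets carry it separately. Its body was unchanged in the Pbro comparison at 0.08 (DESeq2 adjusted p = 0.996) and in the BEAF comparison at 0.09. Neither of its promoter values was listed. The gain at the start of CG5691 had no counterpart among the listed values farther along the merged gene.

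Vha100-4 encodes one form of the large membrane subunit of the V-ATPase, the pump that acidifies endosomes, lysosomes and related organelles. Its promoter Pol II was 3.02-fold higher after Pbro RNAi than after LacZ RNAi (log2 fold change 1.60, DESeq2 adjusted p = 1.64e-06), rank 3 by fold and 2 by adjusted p among the 47. The body was not listed after Pbro RNAi. After BEAF RNAi the promoter was not listed and the body was unchanged at -0.28, the lowest BEAF value of the 8 genes. The transcript runs on the minus strand of 3R from 14212555 to 14215526 (dm3).

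CG6785 had a promoter value 2.40-fold higher after Pbro RNAi (log2 fold change 1.27, DESeq2 adjusted p = 0.00015), rank 4 of 47 by fold and by adjusted p. Its body was not listed after Pbro RNAi, its promoter was not listed after BEAF RNAi, and its BEAF body value was unchanged at 0.08. It lies on the minus strand of 2L, 12041049 to 12045170 (dm3). These 3 genes and CG9743 held a median of 1.43 at the promoter, against 0.83 for all 47 promoter-up genes, 11 of which were at least 2-fold higher. The genes were chosen with these values in view, so nothing is read from the higher median.

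CG9743 was the only one of the 8 genes called up in both regions. It belongs to the acyl-CoA desaturase family, whose enzymes put a double bond into fatty acyl chains. Its promoter was 1.67-fold higher after Pbro RNAi than after LacZ RNAi (log2 fold change 0.74, DESeq2 adjusted p = 0.0061) and its body 1.22-fold higher (0.29, DESeq2 adjusted p = 0.0222). The promoter value exceeded the body value by 0.45 on the log2 scale, a difference that could not be tested because neither value has a standard error in the sheets. After BEAF RNAi the promoter was not listed and the body was unchanged at 0.05. CG9743 is on the minus strand of 3R, 26022087 to 26028715 (dm3).

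Its body gain was the smallest of the 5 and sat inside the spread of values that were not called. Among the 3857 transcripts listed as unchanged in the Pbro body comparison, 5 had a log2 fold change at or above 0.29, and the highest was 0.34. Every other gain of the 8 genes lay above the highest unchanged value of its region, which was 0.25 at the promoter. The gains were selected as called, and the unchanged transcripts were kept only for their high adjusted p. Transcripts between these limits are not listed, so the separation is partly set by the selection and nothing is read from it.

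The remaining 4 genes were called up in the body alone. HmgZ encodes a small HMG-box protein of chromatin that bends DNA, close in sequence to HmgD. Its body Pol II was 2.07-fold higher after Pbro RNAi than after LacZ RNAi, at a log2 fold change of 1.05 with the lowest adjusted p of the 45 body-up genes (DESeq2 adjusted p = 1.37e-08). It had rank 5 by fold and was one of the 5 body-up genes with a gain of at least 2-fold. Its promoter was not listed after Pbro RNAi. HmgZ was the only one of the 8 with a listed promoter value after BEAF RNAi, unchanged at 0.03 (DESeq2 adjusted p = 0.991), beside a BEAF body value of -0.05. It is the shortest of the 8 genes, a minus-strand transcript of 1450 bp on 2R, 17590563 to 17592012 (dm3).

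Amph encodes amphiphysin, a BAR-domain protein that binds curved membrane and in flies is needed for the tubule network of muscle. Its body Pol II was 1.64-fold higher after Pbro RNAi (log2 fold change 0.71, DESeq2 adjusted p = 4.04e-05), rank 10 of 45 by fold and 6 by adjusted p. The promoter was not listed in either knockdown, and the BEAF body value was unchanged at 0.12, the highest of the 7. Amph is the longest of the 8, 18491 bp on the plus strand of 2R, 8481088 to 8499578 (dm3).

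CG15099 and pst combined small gains with low adjusted p-values. The body of CG15099 was 1.34-fold higher after Pbro RNAi (log2 fold change 0.42), rank 29 of 45 by fold and 2 by adjusted p (DESeq2 adjusted p = 1.76e-08). Its promoter was not listed in either knockdown, and its body after BEAF RNAi was unchanged at -0.10. It lies on the minus strand of 2R, 14724326 to 14733402 (dm3).

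The gene pst (pastrel) is known for resistance of flies to Drosophila C virus. Its body was 1.29-fold higher after Pbro RNAi than after LacZ RNAi (log2 fold change 0.37, DESeq2 adjusted p = 1.57e-05), rank 35 of 45 by fold and 5 by adjusted p. It was the only one of the 8 with a promoter listed as unchanged in the same knockdown, at 0.11 (DESeq2 adjusted p = 0.942), so that the body value exceeded the promoter value; the promoter minus body difference was -0.26, again with no test. Neither region was listed after BEAF RNAi. The transcript is on the minus strand of 3L, 7350375 to 7353213 (dm3).

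**Figure D2:**
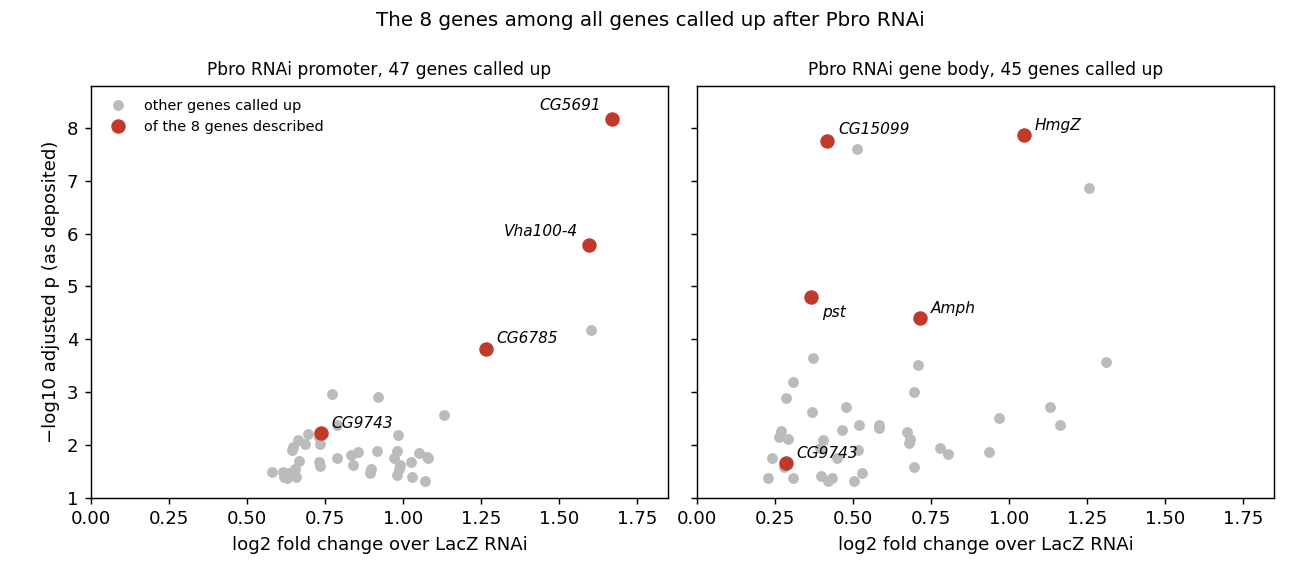
Log2 fold change (x axis) against -log10 of the DESeq2 adjusted p (y axis) for the 47 promoter-up genes (left) and the 45 body-up genes (right) after Pbro RNAi; red points are those of the 8 genes, grey points the others. CG5691 and Vha100-4 lie at the upper right of the promoter panel, while in the body panel CG15099 and pst have low adjusted p-values at log2 fold changes of 0.42 and 0.37.

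The 5 body gains had a median log2 fold change of 0.42, below the 0.50 of all 45 body-up genes. Rank by fold and rank by adjusted p lay farthest apart for CG15099 (29 and 2) and pst (35 and 5) in the body and for CG9743 at the promoter (28 of 47 and 9). The calls nearest the threshold show where the sheets end. Just inside were IP3K2 at the promoter with 1.07 (DESeq2 adjusted p = 0.049), and in the body CG15531 with 0.50 and rost with 0.42 (DESeq2 adjusted p = 0.0494 each). Just outside the gap, as the lowest adjusted p among unchanged transcripts, were Ote at the promoter with 0.25 (DESeq2 adjusted p = 0.9002) and Hat1 in the body with 0.15 (DESeq2 adjusted p = 0.9003).

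A gain in 1 region was listed with a gain in the other for 6 genes. Of the 47 promoter-up genes 28 had a listed body value, of which 6 were up, 21 unchanged and 1 down, and the other 19 were not listed there. Of the 45 body-up genes 18 had a listed promoter value, of which 6 were up, 12 unchanged and none down, and 27 were not listed. Over the 1781 transcripts listed in both regions, 1.57% were up at the promoter and 1.01% in the body. Both regions come from the same libraries. CG9743 is among the 6 and pst among the 12, while the other 6 of the 8 genes are among those whose second region was not listed. The 5 genes up in both regions beside CG9743 were CngB, a cyclic nucleotide-gated channel subunit gene, the Spätzle-family gene spz6, fan, the ecdysteroid synthesis gene sro and the neuropeptide receptor gene Dh31-R. Their promoter values ran from 0.79 for Dh31-R to 1.60 for CngB and their body values from 0.53 for sro to 1.31 for Dh31-R. The promoter value exceeded the body value in CG9743, CngB, spz6, fan and sro, by 0.20 to 0.45, and fell short of it in Dh31-R, where the difference was -0.52.

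BEAF RNAi moved none of the listed values of the 8 genes past the threshold. The 2 BEAF comparisons use the same LacZ libraries as the Pbro comparisons, so their values are set side by side and not as independent evidence. The 7 BEAF body values had a median of 0.05 and ran from -0.28 to 0.12, within the range of all unchanged BEAF body values, -0.42 to 0.40. For all 86 genes up in either region after Pbro RNAi, 74 had a BEAF body value and every one was unchanged (median 0.003, range -0.42 to 0.33), where 0.416% of all listed transcripts were up and 1.33% down. At the BEAF promoter 25 of the 86 were listed, 5 as up, 1 as down and 19, HmgZ included, as unchanged, where 2.67% of all were up and 2.2% down. That no BEAF value of the 8 genes was called does not show that BEAF RNAi left them as they were, because 7 promoter values and 1 body value were not listed.

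Strand, chromosome and length were not named in the rule that chose the 8 genes. Whether length bore on the calls from which they were chosen was not tested. Of the 8, 7 are transcribed from the minus strand, compared with 50.9% of listed transcripts. They lie on 2L (1 gene), 2R (3 genes), 3L (2 genes) and 3R (2 genes), with none on X, which holds 17.2% of listed transcripts and 9 of the 47 promoter-up and 7 of the 45 body-up genes. HmgZ alone is shorter than the median listed transcript of 2517.5 bp, and the shares of listed transcripts that are shorter run from 21.7% for HmgZ to 94.9% for Amph. With 8 genes picked by hand these are descriptions of the genes and not of all genes up after Pbro RNAi.

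Listed genes next to the 8 were compared with them locus by locus. Of their 16 immediate listed neighbours 3 (18.8%) were called after Pbro RNAi and 2 (12.5%) were up. For the other 78 genes up after Pbro RNAi, 13 of 156 neighbours (8.33%) were called and 2 (1.28%) were up. These 2 are HmgZ beside CngB and CG9743 beside CG15531, the same 2 pairs counted from the other side. The shares of up neighbours in the 2 sets are therefore not independent. Over all listed transcripts 10.5% of neighbours were called and 1.56% were up. In all these shares a neighbour with no listed value in either Pbro comparison counts as not called. The 3 called neighbours sit at HmgZ, which has 2, and at CG9743, which has 1, and none was called beside the other 6 genes.

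**Figure D3:**
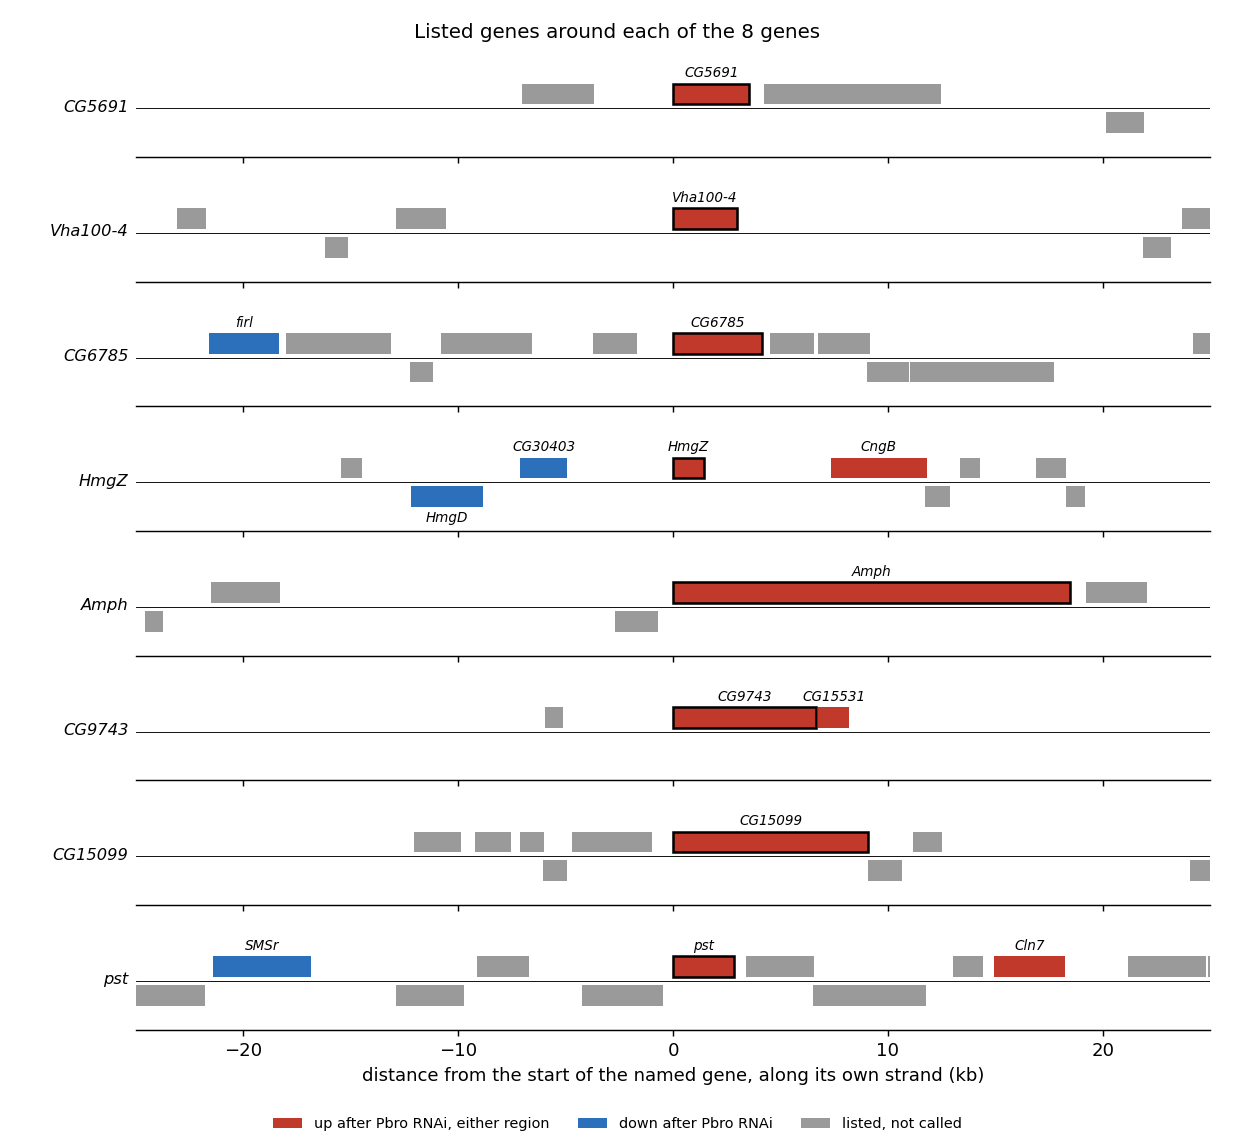
Listed genes within 25 kb of the start of each of the 8 genes, drawn along the strand of that gene (x axis, kb). Same-strand genes are above each line and opposite-strand genes below. Red genes were up and blue genes down after Pbro RNAi in either region. Grey genes were not called after Pbro RNAi, and they include genes listed only after BEAF RNAi, such as Galphaq. HmgZ stands between the up gene CngB and the down genes CG30403 and HmgD, and CG9743 abuts the up gene CG15531.

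The HmgZ locus held changes in both directions. CngB, 5878 bp downstream on the same strand, was up after Pbro RNAi by 1.60 at the promoter (DESeq2 adjusted p = 6.66e-05) and by 1.26 in the body (DESeq2 adjusted p = 1.36e-07). CG30403, 4942 bp upstream on the same strand, was down, at -2.25 at the promoter (DESeq2 adjusted p = 8.18e-14) and -1.32 in the body (DESeq2 adjusted p = 0.000107). HmgD, the paralog of HmgZ, is the next listed gene beyond CG30403, on the opposite strand. Its body fell by 0.48 (DESeq2 adjusted p = 0.0193), so the paralogs moved in opposite directions after Pbro RNAi, and its promoter was not listed. After BEAF RNAi the HmgD promoter was unchanged at 0.02, near the 0.03 of HmgZ, and the bodies of CngB and CG30403 were unchanged at -0.13 and 0.13. The current reference annotation places CG30403 within the span of HmgD. HmgZ and HmgD are similar in sequence, so short reads of one can be lost or assigned to the other where they are identical, and the extent of this was not tested.

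CG15531, of the same desaturase family as CG9743, begins 136 bp beyond its end on the same strand. Its body was up by 0.50 after Pbro RNAi, with an adjusted p just under the threshold (DESeq2 adjusted p = 0.0494), and unchanged after BEAF RNAi at -0.09. On the other side the ribosomal protein gene RpS7, 5125 bp upstream, was unchanged at -0.03 at the promoter and -0.10 in the body. The part that transcription past the end of CG9743 has in the value of CG15531 was not tested. Farther upstream CG9737, the next listed gene at 38269 bp, was down, at -1.25 at the promoter (DESeq2 adjusted p = 0.0178).

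The other 6 loci had immediate listed neighbours that were not called after Pbro RNAi, although some lie very close. CTCF, an insulator protein gene 568 bp downstream of pst, had a body value of 0.05, and Sec63, 460 bp upstream on the opposite strand, had one of -0.10. CG6766, 381 bp downstream of CG6785, had a body value of 0.00, and Plzf, 1683 bp upstream, had 0.10. CG15083 overlaps the end of CG15099 by 22 bp on the opposite strand and had a body value of 0.06, and MetRS, a methionyl-tRNA synthetase gene 960 bp upstream, had 0.05. The corepressor gene Sin3A, 702 bp upstream of Amph on the opposite strand, had 0.06 at the promoter and -0.16 in the body, and Galphaq, 702 bp downstream, was listed only after BEAF RNAi. In the current annotation Cnb and SCOT lie next to mv, the merged gene of CG5691, and CG6770 lies next to CG6785. None of these was listed, so the genes directly beside CG5691 were not seen. Next to Vha100-4 in that annotation are cona and a sister subunit gene, Vha100-2, neither of which was listed. The nearest listed genes, Wdr37 at 10564 bp and Nup43 at 18919 bp, had body values of 0.03 and 0.15.

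The wider families of 5 of the 8 genes were counted from lists of related genes. Their counts stand beside shares over all listed transcripts of 1.87% up and 13.2% down at the Pbro promoter, and of 1.09% up and 5.45% down in the Pbro body. Of 34 V-ATPase subunit names 12 were in any sheet, Vha100-4 included. The 3 others listed at the Pbro promoter were all unchanged, from -0.04 to 0.14, and the 9 listed in the body were all unchanged, from -0.14 to 0.07. The sister subunit gene Vha100-1 had a body value of 0.00. Their medians were 0.11 at the promoter and 0.03 in the body, beside -0.01 and 0.01 over all listed transcripts. Vha100-4, chosen for its gain, was the only one of these 12 with a called value in either Pbro region.

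HMG-box genes were mixed, with 8 of 20 names in any sheet. Beside HmgZ, 3 were listed at the Pbro promoter, of which the transcription factor genes Sox15 (-2.05, DESeq2 adjusted p = 2.31e-12) and SoxN (-1.44, DESeq2 adjusted p = 7.05e-09) were down and Dsp1 was unchanged at 0.01. In the body 4 other genes were listed, with HmgD down and Dsp1 and Ssrp unchanged. The fourth, the repressor gene cic, has 2 entries, 1 up by 0.24 (DESeq2 adjusted p = 0.0174) and 1 under its older tag CG5060 unchanged at 0.08. The medians without HmgZ were -1.44 at the promoter and, with only the called entry of cic, 0.002 in the body.

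The endocytosis and membrane curvature list of Amph, with 13 of 26 names in any sheet, held no other call. All 7 other listed genes were unchanged at the Pbro promoter, from -0.18 to 0.15, and all 8 in the body, from -0.04 to 0.13, with medians of 0.09 and 0.01. The BAR-domain gene EndoB had a body value of -0.04 and the adaptor gene AP-2alpha one of 0.13.

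The fatty acid list of CG9743, with 14 of 27 names in any sheet, held calls in both directions. Of 5 others listed at the Pbro promoter, the elongase genes sit (-1.41, DESeq2 adjusted p = 0.0041) and CG31523 (-0.98, DESeq2 adjusted p = 0.0331) were down and 3 were unchanged. Of 10 others in the body, 2 were up, 3 down and 5 unchanged. CG31522, an elongase family gene, was up by 0.58 (DESeq2 adjusted p = 0.00484) and CG15531 by 0.50, whereas CG31523 (-0.99), the stearoyl-CoA desaturase gene Desat1 (-0.35) and the fatty acid synthase gene FASN2 (-0.28) were down. Desat1 and FASN2 were also down in the body after BEAF RNAi, at -0.58 and -0.23, against the same LacZ libraries. They were 2 of 11 others listed there, where 1.33% of all listed transcripts were down. The medians of the others were -0.09 at the promoter and -0.04 in the body.

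The antiviral list of pst, with 10 of 17 names in any sheet, held 1 other gene called after Pbro RNAi. The virus-induced gene vir-1 was down after Pbro RNAi, at -1.55 at the promoter (DESeq2 adjusted p = 7.50e-12) and -0.92 in the body (DESeq2 adjusted p = 4.94e-05), the opposite direction to pst. The RNA interference genes AGO2, Dcr-2, r2d2 and loqs were listed as unchanged in the Pbro body at 0.12, -0.04, -0.14 and -0.01. Of the 8 others listed in the body 7 were unchanged, and of the 2 at the promoter 1 was. Their medians were -0.79 at the promoter, from those 2 genes, and -0.08 in the body. In the BEAF body comparison 8 genes of this list were listed, where 1.33% of all listed transcripts were down. The RNA-binding nuclease gene Tudor-SN was down, at -0.52, and the other 7 were unchanged. Beside those of Desat1 and FASN2, the value of Tudor-SN was the only one called in any of the 5 lists after BEAF RNAi.

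**Figure D4:**
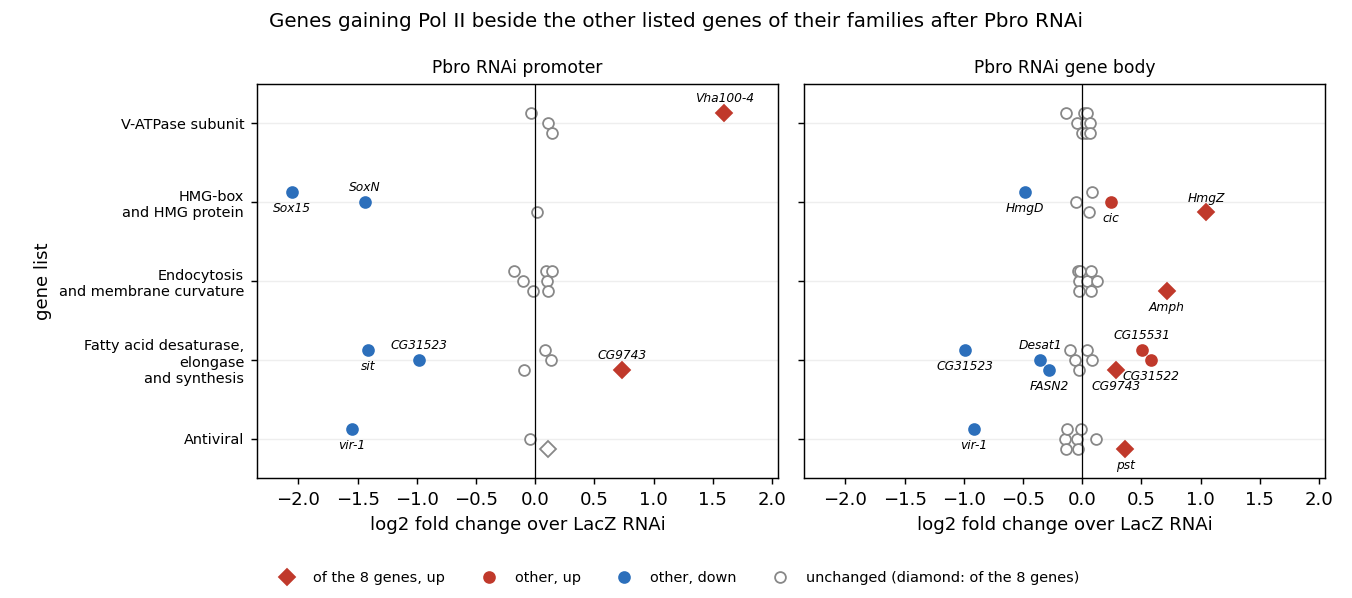
Log2 fold change over LacZ RNAi (x axis) of every listed gene in the 5 family lists (rows) at the promoter (left) and in the gene body (right) after Pbro RNAi; diamonds are those of the 8 genes, circles the other list genes, and open symbols are unchanged. The diamonds were selected for their gains. Beside Vha100-4 at 1.60 and Amph at 0.71 the other listed genes are unchanged. In the body HmgD is down and an entry of cic up in the list of HmgZ, and vir-1 is down in that of pst. The other body entries of these lists are unchanged.

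Genes whose listed values lay nearest to those of a gene described here were found by the root mean square difference of log2 fold change, over the comparisons in which both were listed. Only HmgZ and CG9743 had the 3 comparisons this needs. The Pbro values that selected these genes enter the measure, and 4726 of the 4810 listed BEAF body values were unchanged. The nearest genes are therefore largely set by the selection and are given as a description only. For HmgZ, among 1444 candidates, they were the cytochrome P450 gene Cyp6a8 (difference 0.273), CG31522 (0.276) and the lysosomal transporter gene Cln7 (0.297). Their body gains after Pbro RNAi, 0.70, 0.58 and 0.70, were all smaller than the 1.05 of HmgZ. For CG9743, among 1623 candidates, they were the phosphoribosyl pyrophosphate synthetase gene Prps (0.0283), the MAP kinase gene p38b (0.0734) and the microtubule-binding protein gene CLIP-190 (0.094). These 3 were up at the Pbro promoter at 0.73, 0.66 and 0.69. In the body they were listed as unchanged, at 0.26, 0.18 and 0.15, where CG9743 at 0.29 was called.

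The listed values of the treated gene and of cell type markers are given here as a description. The sheets hold no expression level, and a gene is listed by its adjusted p, so the identity of the cells cannot be checked from them. Pol II on polybromo itself was unchanged after Pbro RNAi, at -0.11 at the promoter and 0.03 in the body, but RNAi acts on the mRNA, so nascent transcription is no check of the knockdown. The PBAP subunit genes Bap170 and e(y)3 were also listed as unchanged in the Pbro body, at -0.01 and 0.01. Of 12 blood cell marker genes 10 were in the sheets. All 5 of these listed at the Pbro promoter were down, from -3.35 to -0.81, where 13.2% of all listed transcripts were down. In the Pbro body 4 were listed, of which Pxn was down at -0.68 and eater, srp and ush were unchanged (median of the 4, -0.06), where 5.45% of all were down. At the BEAF promoter 6 of the markers were listed, where 2.67% of all were up. He (0.94, DESeq2 adjusted p = 0.0128) and Ppn (0.72, DESeq2 adjusted p = 0.00336) were up, and 4 were unchanged. The 7 markers listed in the BEAF body were all unchanged. The part of these markers in the gains described here was not tested. Of muscle and neuron markers Mef2 and nSyb alone were listed, both unchanged, and neither of the fat body markers was.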

How the data were processed

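PRO-seq libraries of S2 cells, 2 biological replicates each for Pbro, BEAF and LacZ RNAi, were made and processed by the authors. The authors clipped and shortened reads with the FastX toolkit before aligning them to dm3 with Bowtie. The authors counted reads of nonoverlapping genes in the richest short window near the start (promoter) and in the body without its ends, and tested these with DESeq2. Versions and the scaling of libraries are not given in the sources used here.

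The 12 sheets hold log2 fold changes (knockdown over LacZ RNAi) that the authors deposited from DESeq2. The adjusted p-values beside them are also as deposited. These are the only measurements in the sheets, so they are printed as they stand, and no test was run here. The adjusted p-values come from comparing 2 libraries with 2 and give no measure of variation beyond these libraries. Depth per library was not used here, and without it no counting interval can be given.

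The 8 genes, the lists of related genes and the rule for naming genes were chosen with earlier results of these data known. Named genes are the 8, their listed neighbours, called genes of the 5 lists, the 3 most similar genes per gene (at least 3 shared comparisons), the targets, PBAP subunits and threshold genes. The genes up in both regions and some unchanged list genes were named after their values were seen. Current symbols came from a RefSeq gene table of the Release 6 assembly, used for names and gene order only, which matched 5525 of 5528 transcripts; coordinates are dm3 as deposited. The search for the most similar genes was tested on simulated data, and the search for adjacent genes was not. Tables were made with Python 3.11.15, pandas 2.3.3 and numpy 2.4.6, and plots with matplotlib 3.10.9. Alternatives were stricter thresholds, a fold minimum, other denominators, another likeness measure and lookup by current symbol.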

Additional observations from a re-analysis of the deposited data

How the results depend on the processing

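Of 27 alternatives run, 21 left the result within 1.5 times its main value, and a share also within its binomial interval, and 6 moved it. Part of this tally was fixed in advance, so it is no measure of robustness. The BEAF counts of the 8 genes were 0 and cannot rise under a stricter setting. Keeping 1 transcript per gene removed few or no transcripts. At an adjusted p under 0.01 the share of listed transcripts up after Pbro RNAi was 0.598% at the promoter and 0.678% in the body, and the share up after BEAF RNAi was 1.4% at the promoter and 0.27% in the body. Among transcripts listed in both regions the share up at the BEAF promoter was 1.71%. Requiring at least a 2-fold change left 1 of the 5 body gains, that of HmgZ. At an adjusted p under 0.01 all 4 promoter gains and 4 of the 5 body gains remained, the body of CG9743 being the exception. The genes were chosen with these folds and adjusted p-values in view, so nothing is read from the gains that remained. The largest absolute difference in place of the root mean square gave the same 3 most similar genes for HmgZ and for CG9743, and lookup through the reference table found the same 8 genes. No paired analysis was possible because the sheets carry no values per library, and for the same reason no replicate could be left out. The planned search of promoters for motifs was not run, since promoter sequences were not used here. The sheets omit adjusted p-values from 0.05 to 0.9, so every share above is of a selected set, and only 18 of the 32 values of the 8 genes are listed.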

Other observations

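Cln7, one of the genes nearest to HmgZ in listed values, lies 14.9 kb beyond the start of pst on the same strand. Cln7 and pst are both up in the body after Pbro RNAi (0.70 for Cln7 and 0.37 for pst). The genes listed between them, CTCF, qm and CG14834, were not called. The sheets list 2 older tags of the gene cic separately, as they do for CG5691 and CG11814 of mv. In both merged genes 1 entry was called up and the other was listed as unchanged, although for mv the call is at the promoter and the unchanged value in the body.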
